A study of Mus musculus with 48 samples.

Results

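The genes described here are the heat shock proteins and related chaperones of the mouse renal cortex: the Hsp70, Hsp90, Hsp110 and small heat shock protein families, the DnaJ (Hsp40) family, the mitochondrial chaperonin pair and the cytosolic chaperonin CCT. Members were picked out by gene symbol; the choice of these families was made with earlier results of these data known. Of the 14238 gene symbols in the deposited table, 73 belonged to these families. By the place where the protein works, 48 were cytosolic, 14 belonged to the endoplasmic reticulum (ER), 10 were mitochondrial and 1, Dnajc22, was left unplaced. The 48 cytosolic genes comprised 22 DnaJ proteins, 8 Hsp70 proteins, 7 CCT subunits, 6 small heat shock proteins, 3 Hsp110 proteins and 2 Hsp90 proteins. The values summed 174 transcripts, and 28 of the 73 genes had 1 transcript in the table. All 73 could be tested in every comparison of injured with control kidneys.

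RNA sequencing was performed on renal cortex of male C57BL/6 mice aged 6 to 8 weeks, in which the left renal pedicle was clamped to cause ischemia-reperfusion injury (IRI). A mild model (20 minutes of ischemia) and a severe model (40 minutes) were each sampled on day 1 and on day 3. Each of the 24 mice gave an injured left kidney and a right kidney as self-control, so that the 48 libraries formed 8 groups of 6 kidneys. The mice carried no transgene, and no agent other than the anesthetic was given. According to the study's methods the right kidney was removed before the left pedicle was clamped. The labels give the controls the same days as the injured kidneys, and when they were collected was not settled here. If they were taken at the operation, injury cannot be told apart from the effects of the operation and of losing 1 kidney. In whole cortex, fewer cells of a type and less RNA per cell cannot be told apart either.

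Chaperones bind unfolded or newly made proteins and keep them from aggregating. Hsp70 proteins work in cycles of ATP hydrolysis that DnaJ proteins start and Hsp110 proteins reset by exchanging the nucleotide, Hsp90 acts late on signaling proteins, small heat shock proteins hold unfolded clients without ATP, and CCT folds actin and tubulin inside a closed ring. Heat shock factor 1 (HSF1) induces many cytosolic members, the unfolded protein response induces those of the ER, and the mitochondria have a set of their own. Ischemia depletes ATP and disturbs the actin skeleton of tubule cells, and Hsp70 and Hsp25 (Hspb1) have long been studied in the injured kidney.

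Elements of the heat shock and ER stress responses were searched for in the promoters. The 250 bases before the transcription start (RefSeq, GRCm38.p6) were found for 59 of the 73 genes, as 78 promoters. None was found for Hspa8, Hsp90aa1, Hsp90ab1 and Hspa9, among others, so the search left out some of the most abundant members. A paired heat shock element, GAANNTTC or TTCNNGAA, stood in 17 of the 78 promoters (21.8%, in 15 genes), against 12.8% of all 32851 promoters searched. A run of 3 such units, GAA and TTC in turn with a gap of 2 bases each, always holds the paired element and stood in 4 (5.13%, in 3 genes, against 0.466% of all promoters). Of these, 1 promoter of Hspd1 overlaps that of Hspe1 on the opposite strand and holds the same run. Those of Dnajb6 overlap each other, so the 4 are not independent. The ER stress element, CCAAT and CCACG with 9 bases of any kind between them on either strand, stood in 3 promoters (3.85%, against 0.113%), those of Hspa5, Hsp90b1 and Dnajc3. A match is a description of the letters and not a site shown to be bound. The sequences are given for 4 genes with a heat shock element, of which Hspa1a and Hspb1 rose and Hsph1 and Hspe1 fell on day 1 after 40 minutes of ischemia, and for the 3 genes with the ER element, none of which rose. Capitals mark the fixed bases of the matched element, and every sequence reads 5′ to 3′ toward the start.
Hspa1a, chr17:34972157-34972406, minus strand: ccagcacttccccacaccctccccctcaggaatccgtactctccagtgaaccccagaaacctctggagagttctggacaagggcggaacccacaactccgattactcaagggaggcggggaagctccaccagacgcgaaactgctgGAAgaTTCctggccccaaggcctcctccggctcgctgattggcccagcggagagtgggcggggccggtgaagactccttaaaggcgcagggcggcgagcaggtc
Hspb1, chr5:135887669-135887918, plus strand: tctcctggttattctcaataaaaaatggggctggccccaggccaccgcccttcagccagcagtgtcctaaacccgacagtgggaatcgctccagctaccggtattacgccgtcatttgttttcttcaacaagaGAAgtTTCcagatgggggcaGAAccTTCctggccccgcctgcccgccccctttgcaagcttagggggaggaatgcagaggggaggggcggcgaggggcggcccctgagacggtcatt
Hsph1, chr5:149636337-149636586, minus strand: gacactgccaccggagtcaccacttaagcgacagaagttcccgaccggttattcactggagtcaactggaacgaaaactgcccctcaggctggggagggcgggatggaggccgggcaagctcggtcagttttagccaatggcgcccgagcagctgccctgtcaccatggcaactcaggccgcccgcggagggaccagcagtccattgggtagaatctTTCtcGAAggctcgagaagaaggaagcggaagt
Hspe1, chr1:55087898-55088147, plus strand: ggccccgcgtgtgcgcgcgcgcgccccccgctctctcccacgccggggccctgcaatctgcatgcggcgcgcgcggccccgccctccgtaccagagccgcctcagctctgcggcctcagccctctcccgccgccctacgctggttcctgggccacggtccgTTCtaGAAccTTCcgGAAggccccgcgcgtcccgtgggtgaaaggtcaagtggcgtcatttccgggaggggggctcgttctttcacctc
Hspa5, chr2:34771840-34772089, plus strand: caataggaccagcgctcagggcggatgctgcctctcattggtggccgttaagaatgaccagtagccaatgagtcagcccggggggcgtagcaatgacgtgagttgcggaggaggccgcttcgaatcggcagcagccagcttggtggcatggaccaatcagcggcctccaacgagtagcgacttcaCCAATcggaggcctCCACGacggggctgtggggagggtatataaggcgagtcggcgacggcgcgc
Hsp90b1, chr10:86705445-86705694, minus strand: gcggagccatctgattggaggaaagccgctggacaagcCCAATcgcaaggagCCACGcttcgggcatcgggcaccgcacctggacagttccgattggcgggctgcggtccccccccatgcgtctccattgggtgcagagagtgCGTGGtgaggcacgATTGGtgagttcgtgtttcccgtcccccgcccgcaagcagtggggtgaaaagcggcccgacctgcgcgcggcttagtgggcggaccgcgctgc
Dnajc3, chr14:118937682-118937931, plus strand: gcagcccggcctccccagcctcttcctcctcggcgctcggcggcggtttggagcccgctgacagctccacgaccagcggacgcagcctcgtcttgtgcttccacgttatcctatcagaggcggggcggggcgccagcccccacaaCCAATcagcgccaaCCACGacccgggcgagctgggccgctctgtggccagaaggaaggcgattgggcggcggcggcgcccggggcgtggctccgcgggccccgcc
Hspa1b, the neighboring copy of Hspa1a, had the same base at 247 of the 250 positions (98.8%). Hspd1 lies next to Hspe1 on the minus strand and has 2 listed starts. One is 216 bases upstream of the Hspe1 start and directed away from it, and the run of elements printed for Hspe1 lies between them. The other is 95 bases downstream of the Hspe1 start, and 0 elements stood in the 250 bases before it.

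The libraries were similar in size. Values were in FPKM (fragments per kilobase of transcript, scaled to the number of mapped fragments), a level already scaled for gene length and library size, and they summed to between 381308 and 421059 in each library. The step between the lowest values gave an estimated 9410000 to 16000000 read pairs per library (median 12500000). The 12 proximal tubule markers, which identify cortex, summed to between 11890 and 16120 FPKM in the 24 control kidneys. After 40-minute IRI they summed to between 3162 and 5886 FPKM in the 12 injured kidneys, and 10 of the 12 markers fell on each day. The other 2, Slc13a3 and Slc22a6, named after their values were seen, rose on day 3. Macrophage markers (10 genes) summed to between 31.0 and 102 FPKM in controls and between 105.8 and 638.4 FPKM after 40-minute IRI. Marker levels thus moved together with every result of the severe model. After 20-minute IRI the proximal tubule sum was below its controls as well, at 8086 to 12350 against 14530 to 15930 FPKM on day 1. On day 3 of that model it was 8797 to 12440 against 12750 to 15020 FPKM. The part of tissue composition in the results was not tested.

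A pair of injured libraries stood apart from their groups. In replicate 6 of the 40-minute day 1 IRI group the 7 CCT subunits summed to 430.6 FPKM (620.4 to 690.1 in the other 5 kidneys), the mitochondrial chaperones to 695.4 FPKM (897.8 to 918.8) and the macrophage markers to 570.9 FPKM (105.8 to 307.2). Set against the 6 injured day 3 kidneys of the same model, most of its sums lay inside their range and some outside. Its macrophage, smooth muscle, skeletal muscle, proximal tubule, adipose and cell cycle marker sums were inside. Also inside were its sums of the small heat shock proteins, of the ER chaperones and of immediate early genes. The same held for its sums of co-chaperones, ER folding genes and mitochondrial import genes, the related lists counted below. Its neutrophil sum of 20.2 FPKM (8.735 to 17.97) and endothelial sum of 169.5 FPKM (57.12 to 160.3) were above. Its distal nephron sum of 659.8 FPKM (700.5 to 1075), CCT sum (441.3 to 503.6) and mitochondrial chaperone sum (699 to 770.3) were below. In replicate 4 of the 20-minute day 3 IRI group the CCT subunits summed to 581.9 FPKM (360.2 to 404.8 in the others), the ER chaperones to 684.4 FPKM (428.3 to 520.0) and the distal nephron markers to 858.0 FPKM (1473 to 2285). Both kept their labels here. The members that changed side of the test's threshold without either library are named with the counts.

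In control kidneys the most abundant members were housekeeping chaperones. Over the 24 control kidneys, Hspa8 (constitutive cytosolic Hsp70) averaged 405 ± 90.0 FPKM (SD), Hsp90ab1 (constitutive Hsp90) 404 ± 33.0 FPKM and Hspd1 (mitochondrial Hsp60) 333 ± 20.7 FPKM. Hspa9 (mortalin) averaged 269 ± 7.32 FPKM, Hspe1 (Hsp10) 259 ± 20.5 FPKM, Hsp90b1 (Grp94) 189 ± 24.9 FPKM and Hspa5 (BiP) 148 ± 49.5 FPKM. Of these 7, Hspa9 had the smallest spread between animals and Hspa5 the largest relative to its mean. Neither Hspa8 nor Hsp90ab1 passed the test against control in any model or on any day.

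After injury the chaperones did not move as a block. The question was which members changed in the injured kidney relative to the control kidneys of the same model and day. Each gene was tested by limma on log2(FPKM + 0.01) across all genes with Benjamini-Hochberg adjustment; "rose" and "fell" below mean an adjusted p under 0.05, and "called" adds a fold of at least 2. On day 1 after 20-minute IRI, 3 of 73 members rose and 1 fell, where 4.19% of all genes rose and 2.49% fell. On day 3, 6 rose and 9 fell (8.47% and 8.85% of all genes). On day 1 after 40-minute IRI, 31 rose and 19 fell (39.7% and 18.4% of all genes). On day 3, 19 rose and 23 fell (37.2% and 20.0% of all genes). Members called numbered 3 higher and 0 lower, 3 and 2, 9 and 3, and 4 and 3 in the same order, where 1.19% and 0.442%, 2.34% and 1.73%, 15.7% and 7.39%, and 15.3% and 5.98% of all genes were called higher and lower. All 6 injured kidneys lay above all 6 controls for 4, 5, 15 and 14 members and below them for 0, 5, 15 and 17, where 3.2% and 2.01%, 4.86% and 5.43%, 24.6% and 11.1%, and 25.7% and 12.6% of all genes did so.

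Single libraries moved the counts of the mild model. The share of all genes in fits that leave out a kidney is not given here or below, so such counts do not single out the chaperones. Without replicate 4 of the mild model's day 3 IRI group, 6 members rose and 20 fell. The 11 members that passed as lower in that fit alone were Cct3, Cct8, Dnajb11, Dnajb14, Dnajc8, Hsp90b1, Hspa4, Hspa5, Hspa9, Hspa13 and Hspe1. Of those not given again for this comparison, Hspa4 was at -0.30 (adjusted p = 0.00832), Hspa13 at -0.41 (adjusted p = 0.0156), Dnajb11 at -0.27 (adjusted p = 0.00727), Dnajb14 at -0.23 (adjusted p = 0.0488), Dnajc8 at -0.19 (adjusted p = 0.0423) and Hspa9 at -0.15 (adjusted p = 0.0285). On day 1, 5 rose and 3 fell without IRI replicate 5, and 9 rose and 2 fell without IRI replicate 6. Leaving out any other kidney gave 2 or 3 higher and 0 or 1 lower. With the mouse as a block 2 rose and 0 fell on that day, where 97 of all 14238 genes rose and 75 fell. In the severe model, 35 rose and 18 fell on day 1 without IRI replicate 6. In that fit Dnajb2 (0.30, adjusted p = 0.0412), Hspa4 (0.29, adjusted p = 0.00155), Hspa12b (0.45, adjusted p = 0.0344), Hspa9 and Hsp90ab1 passed as higher as well, and Dnajc19 (adjusted p = 0.0675) and Hspb2 (adjusted p = 0.0923) no longer passed.

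The median log2 change of the 73 members was 0.09, -0.08, 0.23 and 0.04 in these comparisons, against 0.10, 0.02, 0.24 and 0.16 for all genes. In the severe model the median gene was thus itself above 0, and scaling all libraries to an equal median took the all-gene medians to 0.02 on day 1 and -0.0046 on day 3. Under that scaling 22 members rose and 25 fell on day 1, where 3965 of all 14275 genes rose and 3744 fell. On day 3, 11 members rose and 30 fell, where 4107 of all 14270 genes rose and 4030 fell. The balance of higher and lower thus depended on the scaling, among members and among all genes. In the mild model 3 members rose and 3 fell under it on day 1 (376 and 815 of 14239 genes). On day 3 of that model it was 6 and 10 (1175 and 1420 of 14248 genes). Without that scaling, all 19 members that rose on day 3 of the severe model were among the 31 that rose on day 1. Likewise 18 of the 19 that fell on day 1 were among the 23 that fell on day 3. No member rose on one day and fell on the other. After 20-minute IRI 1 member, Hspb1, rose on both days.

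**Figure D1:**
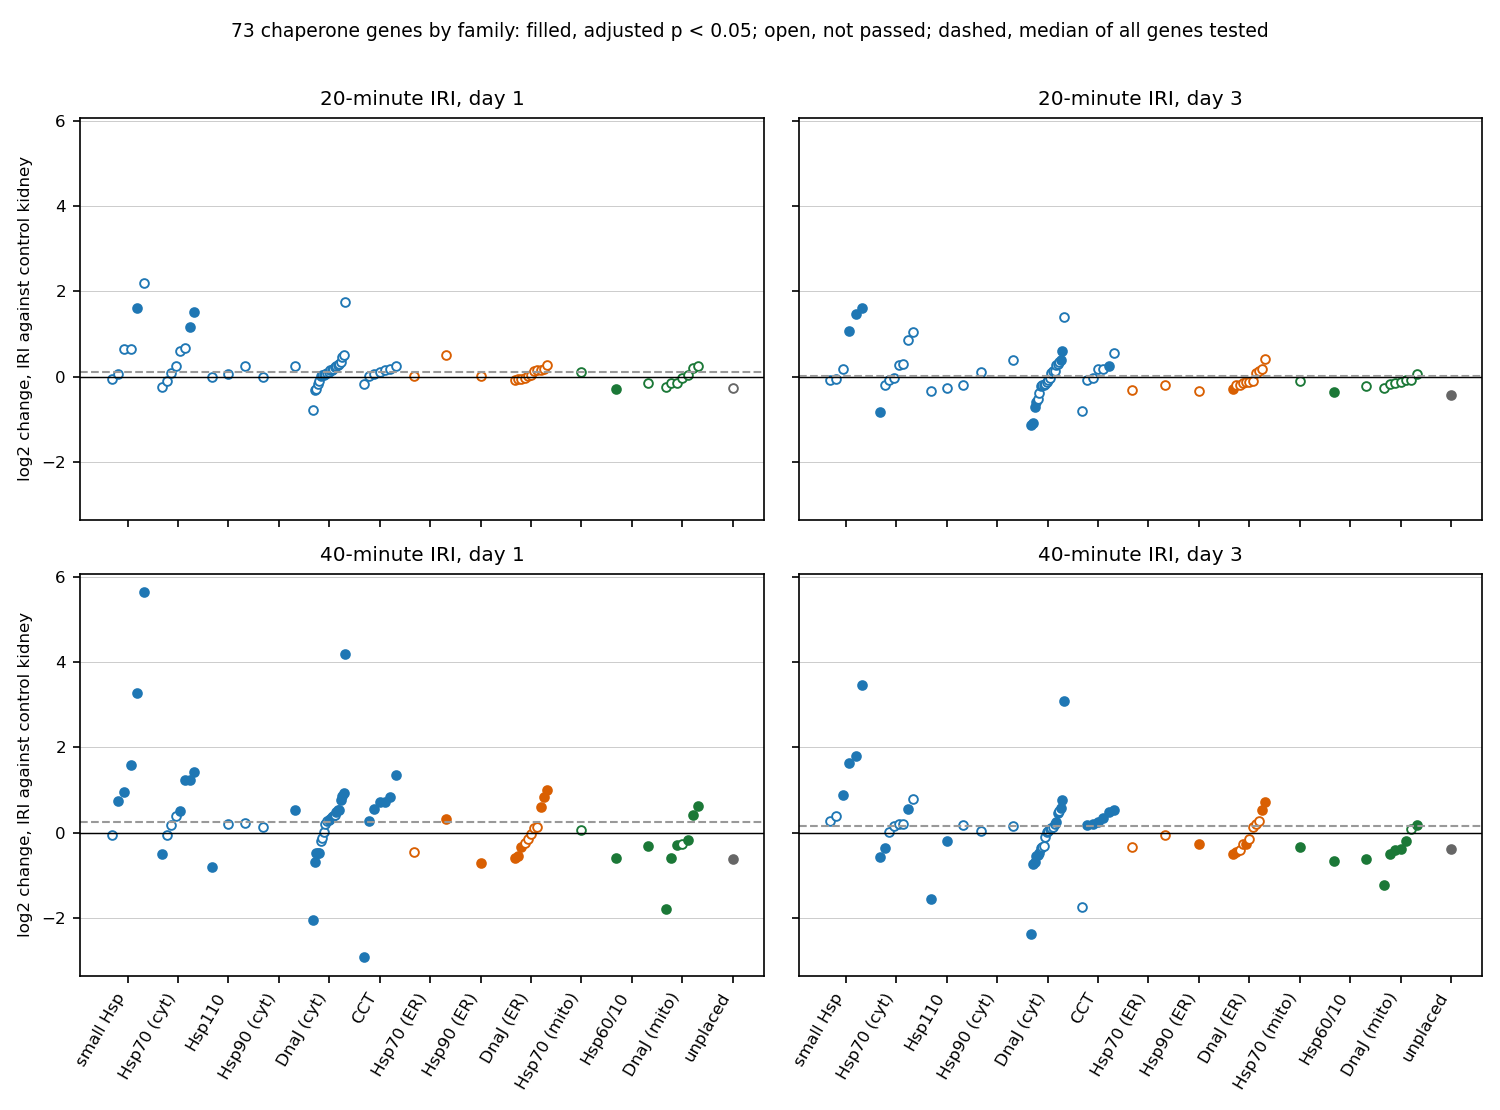
Log2 change of each of the 73 genes (vertical axis, IRI against control kidney, 6 kidneys each) in 13 families, 1 panel per model and day; filled points had an adjusted p under 0.05 and the dashed line is the median of all genes tested. In the 40-minute panels 5 of the 6 small heat shock proteins on day 1, all 6 on day 3 and 6 of the 7 CCT subunits lie above 0, Hsp60/10 lies below 0, and the DnaJ families spread on both sides.

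The small heat shock proteins had the highest median log2 change of the families after severe injury, 1.27 on each day. Together the 6 genes summed to a mean of 28.7 ± 4.48 FPKM (SD, n = 6) in control kidneys and 126 ± 17.2 FPKM in injured kidneys on day 1 after 40-minute IRI, and 28.1 ± 0.809 against 127 ± 21.2 FPKM on day 3. On day 1, 5 of the 6 rose and on day 3, 4 of 6 (39.7% and 37.2% of all genes). Under equal-median scaling 4 rose on each day (3965 of 14275 and 4107 of 14270 genes). The sum was made up mostly of Hspb1.

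Hspb1 encodes Hsp25, which holds unfolded proteins and binds actin. In control kidneys of the 40-minute model it ran from 7.39 through a median of 9.99 to 12.4 FPKM on day 1, and in the injured kidneys from 70.3 through 91.7 to 115 FPKM. On day 3 the controls ran from 7.11 through 7.75 to 10.2 FPKM and the injured kidneys from 67.6 through 88.4 to 124 FPKM. The groups were far apart on both days. The change was 3.27 ± 0.15 on the log2 scale (SE; 9.61-fold, adjusted p = 5.48e-09) on day 1 and 3.47 ± 0.14 (11.1-fold, adjusted p = 1.39e-09) on day 3.

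After 20-minute IRI Hspb1 was above the highest control in every kidney as well, on day 1 by a narrow margin. Injured kidneys ran from 7.10 through 15.7 to 57.3 FPKM on day 1, against 4.21 through 5.87 to 7.09 FPKM in controls, and the log2 change was 1.6 ± 0.39 (adjusted p = 0.0336). That call was lost with the mouse as a block (adjusted p = 0.0515) and when any of 9 of the 12 kidneys was left out, IRI replicates 1, 2 and 4 and all 6 controls (highest adjusted p = 0.0726). On day 3 injured kidneys ran from 17.8 through 18.8 to 48.9 FPKM against 3.75 through 7.87 to 11.6 FPKM in controls (log2 1.61 ± 0.31, adjusted p = 0.00373), and the highest value was that of replicate 4, the library that stood apart. Parts of the Hspb1 transcript are also found elsewhere: 44% of its 100-base words occur in other annotated genes, among them the pseudogene Hsp25-ps1.

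Hspb8, the partner of Bag3 in selective autophagy, rose with Hspb1 in 3 of the 4 comparisons. Controls on day 1 of the 40-minute model ran from 1.23 through 2.16 to 3.37 FPKM and injured kidneys from 6.01 through 6.63 to 7.25 FPKM (log2 1.59 ± 0.20, adjusted p = 1.7e-05). On day 3 they ran from 1.94 through 2.34 to 3.08 FPKM and from 6.57 through 7.48 to 8.53 FPKM (log2 1.64 ± 0.13, adjusted p = 2.56e-07). The log2 change was 1.07 ± 0.22 (adjusted p = 0.00572) on day 3 after 20-minute IRI and 0.66 ± 0.27 (adjusted p = 0.142) on day 1.

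Hspb6 (Hsp20), a small heat shock protein of muscle, was low in the 24 control kidneys (median 1.375 FPKM). It was near 0 in part of the day 1 controls of the 40-minute model. On day 1 of the 40-minute model controls ran from 0 through 0.196 to 3.00 FPKM and injured kidneys from 5.03 through 6.95 to 9.80 FPKM, with no overlap. The fitted log2 change of 5.64 ± 1.29 (adjusted p = 0.00222) depends on the added constant and was 4.22 with 0.1 FPKM and 2.36 with 1 FPKM. On day 3 no control was at 0, and the groups ran from 0.853 to 2.48 and from 3.82 to 8.57 FPKM (log2 1.80 ± 0.26, adjusted p = 6.14e-05). It also rose on day 3 after 20-minute IRI (1.47 ± 0.37, adjusted p = 0.0164).

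The remaining small heat shock proteins changed less. Hspb2, which pairs with Hspb3 in muscle, had a log2 change of 0.74 ± 0.30 (adjusted p = 0.0492; 0.0779 with the mouse as a block) on day 1 and rose by 0.89 ± 0.20 (adjusted p = 0.00192) on day 3 after 40-minute IRI. Hspb7, a cardiac and muscle form, rose on day 1 (0.96 ± 0.27, adjusted p = 0.00727) and was at 0.38 ± 0.32 on day 3 (adjusted p = 0.337), and the difference between the days did not pass (adjusted p = 0.392). Hspb11, which works in the cilium as Ift25, passed in no comparison (log2 -0.05 and 0.26 on days 1 and 3 of the severe model). Several of these genes are known from muscle, and the sum of 8 smooth muscle markers moved with them. On day 1 of the 40-minute model the sum ran from 97.9 to 146.7 FPKM in controls and from 279.4 to 718.0 FPKM in injured kidneys. On day 3 it ran from 95.2 to 130.9 against 106.2 to 417.6 FPKM. Of the 8 markers 6 rose on day 1 and 4 on day 3 (39.7% and 37.2% of all genes). The part of these markers in the rise was not tested.

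The stress-inducible Hsp70 genes rose on day 1 of both models. Hspa1a and Hspa1b encode nearly identical inducible proteins and share 56.5% and 49.9% of their 100-base words with other genes, chiefly each other, so the split between them is uncertain and their sum is given too. On day 1 after 20-minute IRI Hspa1b ran from 9.09 through 17.98 to 28.2 FPKM against 4.74 through 5.47 to 7.67 FPKM in controls (2.85-fold; log2 1.51 ± 0.24, adjusted p = 0.00736). Hspa1a ran from 6.92 through 11.4 to 15.4 FPKM against 3.16 through 4.97 to 6.27 FPKM (log2 1.17 ± 0.22, adjusted p = 0.0145). Both groups were separate for each gene, and the sum of the 2 genes gave 1.37 ± 0.23 (adjusted p = 0.0084).

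Both also rose on day 1 after 40-minute IRI. Hspa1b ran from 16.9 through 27.3 to 32.2 FPKM against 4.81 through 8.32 to 22.8 FPKM in controls (log2 1.43 ± 0.35, adjusted p = 0.00346), and Hspa1a changed by 1.24 ± 0.31 (adjusted p = 0.00373). The groups overlapped, since the highest control lay within the injured range. The difference between the changes of the 2 models was 0.07 ± 0.40 for Hspa1a (adjusted p = 0.918) and -0.08 ± 0.45 for Hspa1b (adjusted p = 0.924), errors wide enough to leave room for a sizeable difference. On day 3 of the severe model Hspa1a did not pass (0.19 ± 0.19, adjusted p = 0.418), and Hspa1b did (0.56 ± 0.20, adjusted p = 0.0274) but not under equal-median scaling (0.40, adjusted p = 0.103), without any of control replicates 1 and 2 and IRI replicates 4, 5 and 6 (highest adjusted p = 0.0616), or in the sum of the 2 genes (0.41, adjusted p = 0.0834). On day 3 of the mild model the changes were 1.03 ± 0.43 for Hspa1b (adjusted p = 0.124) and 0.87 ± 0.43 for Hspa1a (adjusted p = 0.187), and their injured kidneys ranged widely, from 12.7 to 51.3 FPKM for Hspa1b. The change did not differ between the days past the threshold in either model: day 3 minus day 1 was -1.05 ± 0.38 for Hspa1a (adjusted p = 0.0668) and -0.87 ± 0.42 for Hspa1b (adjusted p = 0.169) in the severe model, and -0.30 ± 0.51 (adjusted p = 0.824) and -0.47 ± 0.52 (adjusted p = 0.715) in the mild model.

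**Figure D2:**
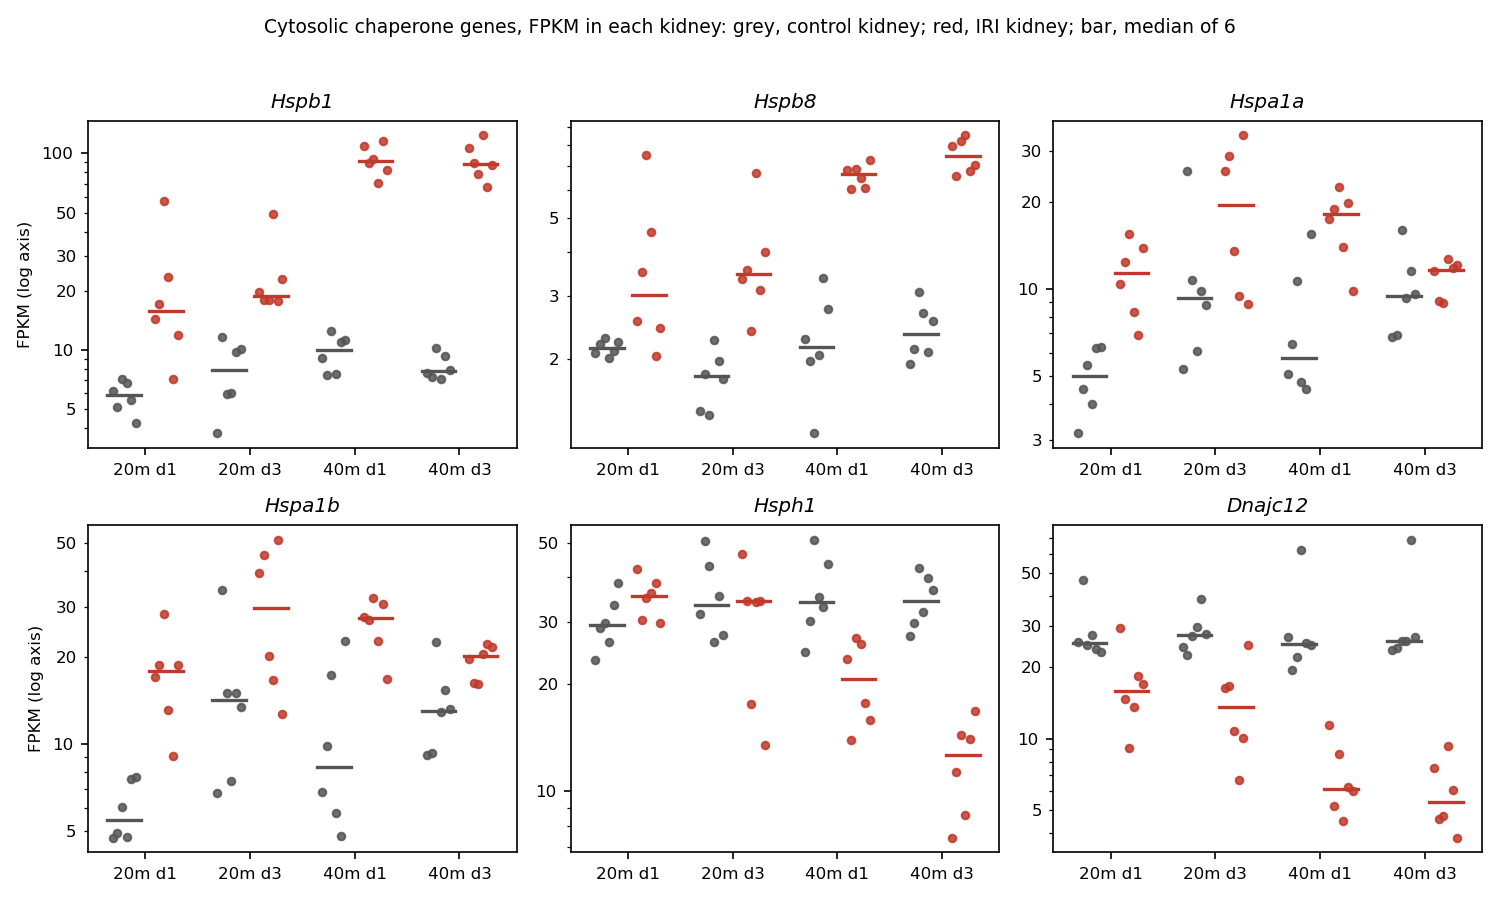
FPKM (vertical log axis) of 6 cytosolic members in each of the 48 kidneys, by model and day; grey points are control kidneys, red points IRI kidneys and bars the median of 6. Hspb1 and Hspb8 stay high on both days of the 40-minute model, Hspa1a and Hspa1b are separate from control on day 1 of the 20-minute model, and Hsph1 and Dnajc12 are lower after 40-minute IRI, with the day 3 injured kidneys of Hsph1 between 7.42 and 16.9 FPKM.

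The other Hsp70 genes of the cytosol moved in both directions. Hspa8, the constitutive form that uncoats clathrin vesicles, ran from 319 to 401 FPKM in injured and from 345 to 434 FPKM in control kidneys on day 1 of the 40-minute model. Its log2 change was -0.05 ± 0.08 there (adjusted p = 0.605; -0.27, adjusted p = 0.0145, under equal-median scaling) and between -0.07 and 0.15 in the other 3 comparisons, none of which passed. Hspa14, a ribosome-bound form, rose by 0.51 ± 0.09 (adjusted p = 0.000273) on day 1 of the severe model, and Hspa1l, whose sequence is 70.8% shared, changed by 1.23 ± 0.35 (adjusted p = 0.0086) at levels under 0.7 FPKM. Hspa12a, a distant relative, fell in the severe model (-0.49 and -0.35 on days 1 and 3) and on day 3 of the mild model (-0.84 ± 0.19, adjusted p = 0.00901). Hspa12b, its endothelial relative, fell on day 3 of the severe model (-0.56 ± 0.16, adjusted p = 0.00976). Hspa2 did not pass against its control kidneys in either model.

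Hsph1 (Hsp105), the heat-inducible Hsp110 that resets Hsp70, went the opposite way from Hspa1a and Hspa1b. On day 1 of the 40-minute model controls ran from 24.6 through 34.05 to 51.0 FPKM and injured kidneys from 14.0 through 20.6 to 26.9 FPKM (log2 -0.81 ± 0.20, adjusted p = 0.00369). On day 3 they ran from 27.3 through 34.4 to 42.4 FPKM and from 7.42 through 12.7 to 16.9 FPKM, with no overlap (-1.56 ± 0.19, adjusted p = 1.83e-05). After 20-minute IRI the changes were 0.24 ± 0.12 on day 1 and -0.33 ± 0.28 on day 3, neither of which passed. The transcript Hsph1-201 was listed at 0 in all 6 injured kidneys of day 3 and in 1 of the 6 controls, and the part that the division of reads among transcripts played in the gene's fall was not tested. Hspa4 (Apg-2) fell slightly on day 3 of the severe model (-0.20 ± 0.05, adjusted p = 0.00349) and Hspa4l passed in none.

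Of the Hsp90 pair, Hsp90ab1 passed in none of the comparisons with control and Hsp90aa1 in 1. Hsp90ab1 ran from 406 through 480 to 525 FPKM in injured and from 371 through 439 to 474 FPKM in control kidneys on day 1 of the 40-minute model (0.13 ± 0.08, adjusted p = 0.156; 0.18, adjusted p = 0.0318, without replicate 6). Hsp90aa1, the inducible form, ran from 133 through 236 to 283 FPKM against 119 through 161 to 188 FPKM and rose by 0.54 ± 0.17 (adjusted p = 0.0161). The lowest of these injured kidneys was replicate 6, without which the change was 0.69 (adjusted p = 0.000236). Under equal-median scaling it was 0.32 (adjusted p = 0.142), for the most abundant transcript alone it was -0.64 (adjusted p = 0.478), and 40.7% of the gene's 100-base words occur in other genes, several of them pseudogenes.

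Cytosolic DnaJ proteins, which bring clients to Hsp70, moved in both directions. Of the 22, 9 rose and 5 fell on day 1 of the 40-minute model (40.9% and 22.7%, near the 39.7% and 18.4% of all genes), and 5 rose and 6 fell on day 3 (22.7% and 27.3%, against 37.2% and 20.0% of all genes). In the mild model 0 passed on day 1, where 4.19% of all genes rose and 2.49% fell. On day 3 of that model 2 rose and 5 fell (9.09% and 22.7%, against 8.47% and 8.85%). Dnajb1 (Hsp40), the heat-inducible partner of Hspa1a, ran from 13.7 through 16.9 to 17.4 FPKM against 11.6 through 12.2 to 15.3 FPKM on day 1 and rose by 0.36 ± 0.09 (adjusted p = 0.00327; 0.13, adjusted p = 0.186, under equal-median scaling). Dnaja1, a constitutive partner of Hspa8, ran from 60.1 through 62.6 to 66.4 FPKM against 71.9 through 90.8 to 112 FPKM and fell (-0.48 ± 0.11, adjusted p = 0.00159; 3.77, adjusted p = 0.221, for its most abundant transcript alone). It also fell on day 3 of both models (-0.47 ± 0.09 severe, -0.61 ± 0.10 mild), with an adjusted p of 0.000647 and 0.00184. Control kidneys of the 2 models themselves differed for Dnaja1 on day 3 (-0.36 ± 0.09, 40- against 20-minute model, adjusted p = 0.0289).

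Dnajc12, a cochaperone of the aromatic amino acid hydroxylases, had the lowest log2 change of the cytosolic DnaJ genes in the severe model. On day 1 of the severe model it ran from 4.50 through 6.12 to 11.4 FPKM in injured and from 19.6 through 25.1 to 62.5 FPKM in control kidneys (-2.06 ± 0.28, adjusted p = 4.31e-05). On day 3 it ran from 3.83 through 5.40 to 9.29 FPKM against 23.8 through 25.9 to 69.1 FPKM (-2.38 ± 0.28, adjusted p = 1.16e-05). The groups did not overlap on either day. After 20-minute IRI the change was -1.10 ± 0.27 on day 3 (adjusted p = 0.0135) and -0.79 ± 0.25 on day 1 (adjusted p = 0.073). Dnajc12 fell alongside the proximal tubule markers, and their part in its fall was not tested.

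Dnajc6 (auxilin), which helps Hspa8 strip clathrin coats, fell in 3 comparisons. On day 3 of the mild model it ran from 3.601 through 4.30 to 4.61 FPKM against 8.18 through 9.12 to 10.98 FPKM (-1.15 ± 0.10, adjusted p = 1.97e-05). On day 1 of that model the change was -0.16 ± 0.21 (adjusted p = 0.652). It fell in the severe model too (-0.47 ± 0.16 on day 1, -0.75 ± 0.13 on day 3), and the changes of the 2 models did not differ past the threshold on day 1 (-0.31 ± 0.27, adjusted p = 0.42) or on day 3 (0.40 ± 0.16, adjusted p = 0.0674). Its day 3 controls were lower in the severe than in the mild model (-0.43 ± 0.11, adjusted p = 0.0328). Dnajc13 (RME-8), another endocytic J protein, fell in the severe model (-0.68 and -0.52) and on day 3 of the mild model (-0.71 ± 0.11, adjusted p = 0.000782).

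Dnajc5 (cysteine string protein alpha), which guards vesicle fusion proteins, rose in 3 comparisons: by 0.94 ± 0.12 (adjusted p = 2.27e-05) and 0.77 ± 0.08 (adjusted p = 5.96e-06) in the severe model and by 0.40 ± 0.10 (adjusted p = 0.0141) on day 3 of the mild model. Dnaja2 rose by 0.38 and 0.25 in the severe model and fell on day 3 of the mild model (-0.21 ± 0.05, adjusted p = 0.015; 0.0524 with the mouse as a block), where its controls were the higher of the 2 models' (log2 -0.24 ± 0.03, 40- against 20-minute, adjusted p = 0.000701). Dnajc8 and Dnajc17, both of the spliceosome, rose on both days of the severe model, and Dnajb4, Dnajc2 (a ribosome-bound J protein) and Dnajc7 rose on day 1 and did not pass on day 3; of these 3 the change differed between the days for Dnajc2 (-0.72 ± 0.20, adjusted p = 0.0213). Dnaja4 fell on both days, although 41.5% of its 100-base words are shared with Wdr61, and Dnajc21, a ribosome biogenesis factor, fell on day 3 (-0.69 ± 0.09, adjusted p = 2.64e-05). Dnajb13, a testis J protein, passed on both days but reached at most 0.666 FPKM and was listed at 0 in most controls, so no fold is given. Dnajb3 had a log2 change of 0.59 on day 3 of the mild model (adjusted p = 0.027; 0.0819 with the mouse as a block), and Dnajb2, Dnajb5, Dnajb6, Dnajc9, Dnajc24 and Dnajc27 passed in none, except that Dnajb2 passed on day 1 of the severe model without replicate 6 and Dnajc9 had an adjusted p of 0.0476 on day 1 of the severe model with the block (0.0628 without).

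Most subunits of the cytosolic chaperonin rose on day 1 of the severe model. The 7 subunits in the table summed to 617 ± 95.3 FPKM (SD, n = 6) in injured and 373 ± 25.2 FPKM in control kidneys. The injured kidneys ran from 430.6 to 690.1 FPKM and the controls from 342.7 to 404.6 FPKM, so the groups did not overlap. Of the 7, 6 rose and 1 fell (39.7% and 18.4% of all genes). Under equal-median scaling 5 rose and 1 fell (3965 and 3744 of 14275 genes).

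The 6 subunits that rose share the ring in which actin and tubulin fold. Cct2 rose by 0.71 ± 0.08 (1.64-fold, adjusted p = 7.09e-06), Cct5 by 0.71 ± 0.11 (adjusted p = 0.000158) and Cct3 by 0.84 ± 0.16 (adjusted p = 0.000525). Cct8 rose by 0.56 ± 0.10 and Cct4 by 0.28 ± 0.08. Without replicate 6, the kidney with the lowest sum, the changes of Cct3 and Cct5 were 1.01 and 0.82. Cct7 had a larger fitted change (1.34 ± 0.32, adjusted p = 0.00268), and 1 of its main transcripts was listed at 0 in 3 of the 6 controls and in 0 of the 6 injured kidneys. Cct6a was not analysed here.

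On day 3 of the severe model the CCT sum was 468 ± 26.6 FPKM against 374 ± 18.5 FPKM in controls. The 6 subunits still passed, by 0.47 ± 0.04 for Cct2 (adjusted p = 1.29e-06), 0.34 for Cct4, 0.25 for Cct5 and 0.19 for Cct8. Under equal-median scaling only 1 of the 7 passed, where 4107 of 14270 genes rose and 4030 fell. With the mouse as a block Cct3 (0.21, adjusted p = 0.0882) and Cct7 (0.53, adjusted p = 0.0501) did not pass. Cct6b, a subunit known from testis, went the other way: on day 1 it ran from 0.0816 through 0.155 to 0.239 FPKM against 0.984 through 1.13 to 1.49 FPKM (-2.93 ± 0.30, adjusted p = 3.21e-06; -0.91 with a constant of 1 FPKM), and on day 3 it changed by -1.74 ± 0.87 (adjusted p = 0.107).

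After 20-minute IRI 0 of the 7 subunits passed on day 1, where 4.19% of all genes rose and 2.49% fell. On day 3 of that model 1 of the 7, Cct2, rose (8.47% of all genes). Its change was 0.24 ± 0.07 (adjusted p = 0.0368, and 0.0683 with the mouse as a block). Replicate 4 of that group held the highest CCT sum. Without it Cct2 was 0.18 (adjusted p = 0.00525), while Cct3 (-0.24, adjusted p = 0.0125) and Cct8 (-0.18, adjusted p = 0.0263) then passed as lower.

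**Figure D3:**
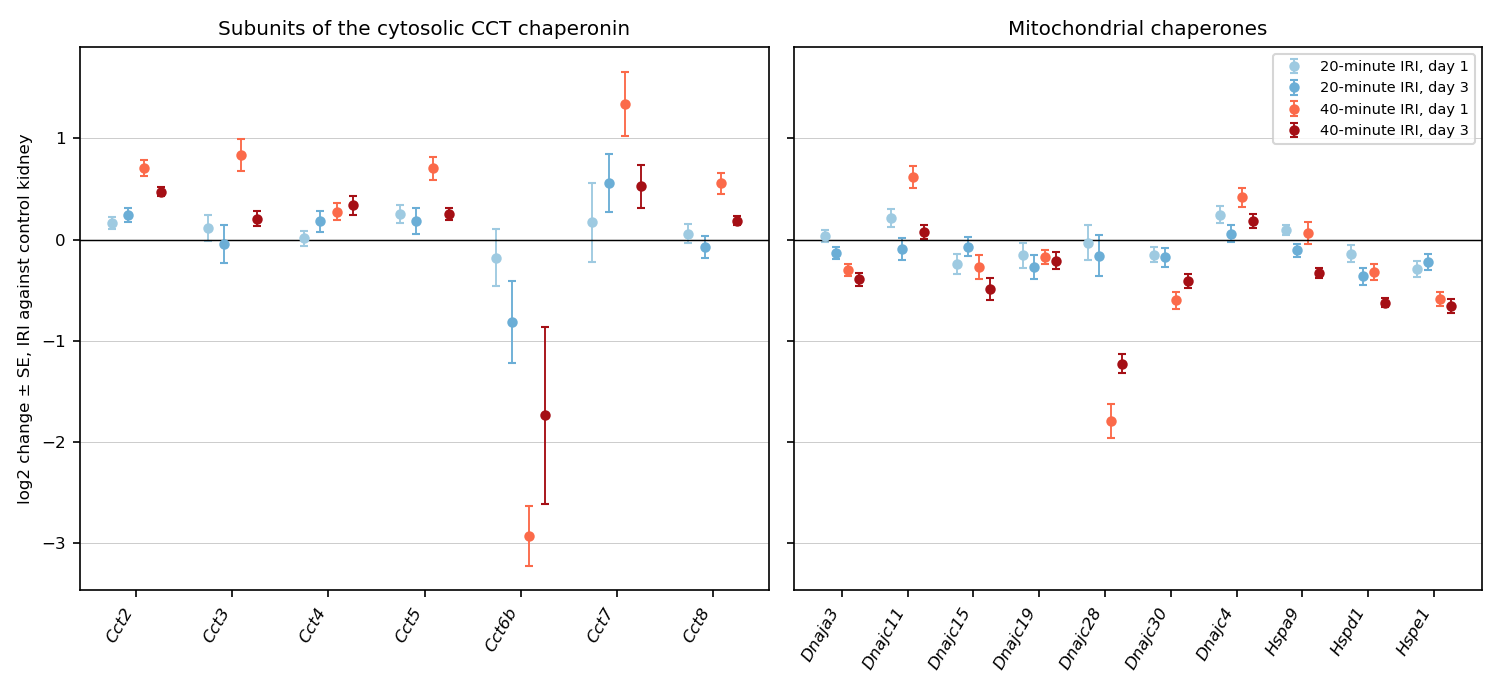
Log2 change ± SE (vertical axis, IRI against control kidney, 6 kidneys each) of the 7 CCT subunits (left) and the 10 mitochondrial chaperones (right) in the 4 comparisons, by color. Cct2, Cct3, Cct5, Cct7 and Cct8 are highest on day 1 after 40-minute IRI, whereas Hspd1 (-0.62) and Hspe1 (-0.66) are lowest on day 3 of that model.

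The ER members moved in both directions. Of the 14, 4 rose and 4 fell on day 1 of the severe model (39.7% and 18.4% of all genes), and 2 rose and 4 fell on day 3 (37.2% and 20.0% of all genes). Under equal-median scaling 3 rose and 6 fell on day 1 (3965 and 3744 of 14275 genes). On day 3 it was 2 and 8 under that scaling (4107 and 4030 of 14270 genes). In the mild model 1 of the 14 fell on day 3 (8.85% of all genes), and 6 fell without replicate 4 of the injured group. On day 1 of that model 0 passed by limma, where 4.19% of all genes rose and 2.49% fell. At an unadjusted p under 0.05, 2 were higher and 0 lower there. The ER stress element printed above stood in 3 of the 12 ER genes with a promoter searched, and none of the 3 rose in any comparison.

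Hspa5 (BiP), the ER Hsp70 and main sensor partner of the unfolded protein response, did not pass in any comparison. On day 1 of the severe model it ran from 44.3 through 118 to 153 FPKM against 47.9 through 180 to 229 FPKM (-0.45 ± 0.46, adjusted p = 0.428). Kidneys of the same group took low or high values, and low values of the gene went with a low level of the transcript Hspa5-202 and a higher one of Hspa5-201. How the reads were divided between these transcripts was not tested, and with this spread the test was weak. Without replicate 4, the change on day 3 after 20-minute IRI was -0.35 (adjusted p = 0.0209).

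Hsp90b1 (Grp94), the ER Hsp90, fell in the severe model. On day 1 it ran from 117 through 124 to 153 FPKM against 181 through 214 to 240 FPKM, with no overlap (-0.72 ± 0.08, adjusted p = 7.2e-06). On day 3 it ran from 128 through 164 to 186 FPKM against 169 through 195 to 216 FPKM (-0.27 ± 0.09, adjusted p = 0.023). It did not pass without control replicate 3 or without IRI replicate 4 (highest adjusted p = 0.0522). After 20-minute IRI on day 3 it was -0.34 ± 0.14 (adjusted p = 0.125), and -0.47 (adjusted p = 0.00198) without replicate 4.

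Dnajc3 (p58IPK), which restrains the kinase PERK and aids BiP, fell in 3 comparisons. After 40-minute IRI on day 1 it ran from 31.6 through 33.2 to 38.3 FPKM against 47.3 through 49.7 to 56.0 FPKM (-0.60 ± 0.07, adjusted p = 6.37e-06). On day 3 the change was -0.50 ± 0.05 (adjusted p = 3.65e-06), and on day 3 of the mild model -0.29 ± 0.05 (adjusted p = 0.00296). Dnajb11 (ERdj3), a secreted BiP partner, fell on days 1 and 3 of the severe model (-0.34 and -0.26), as did Dnajc18 (-0.56 and -0.45).

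Dnajb9 (ERdj4), which represses the sensor IRE1, rose instead. In the 40-minute model it ran on day 1 from 33.7 through 39.2 to 45.1 FPKM against 18.5 through 21.2 to 27.6 FPKM (0.84 ± 0.10, 1.79-fold, adjusted p = 1.73e-05). On day 3 it ran from 33.4 through 36.6 to 47.3 FPKM against 18.9 through 24.5 to 25.1 FPKM (0.71 ± 0.10, adjusted p = 3.4e-05). The day 3 controls were lower in the 40- than in the 20-minute model (-0.51 ± 0.08, adjusted p = 0.00262). Dnajc10 (ERdj5), a disulfide reductase of misfolded proteins, rose by 0.61 ± 0.08 and 0.53 ± 0.06, and Dnajc25 (1.00 ± 0.27, adjusted p = 0.00584) and Hspa13 (0.32 ± 0.13, adjusted p = 0.0421) rose on day 1. Neither passed on day 3, and the difference between the days did not pass (adjusted p = 0.183 for Dnajc25 and 0.0709 for Hspa13). Dnajb12, Dnajc1, Dnajc14 and Dnajc16 passed in no comparison with control, and Dnajb14 only without replicate 4 of the 20-minute day 3 IRI group.

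**Figure D4:**
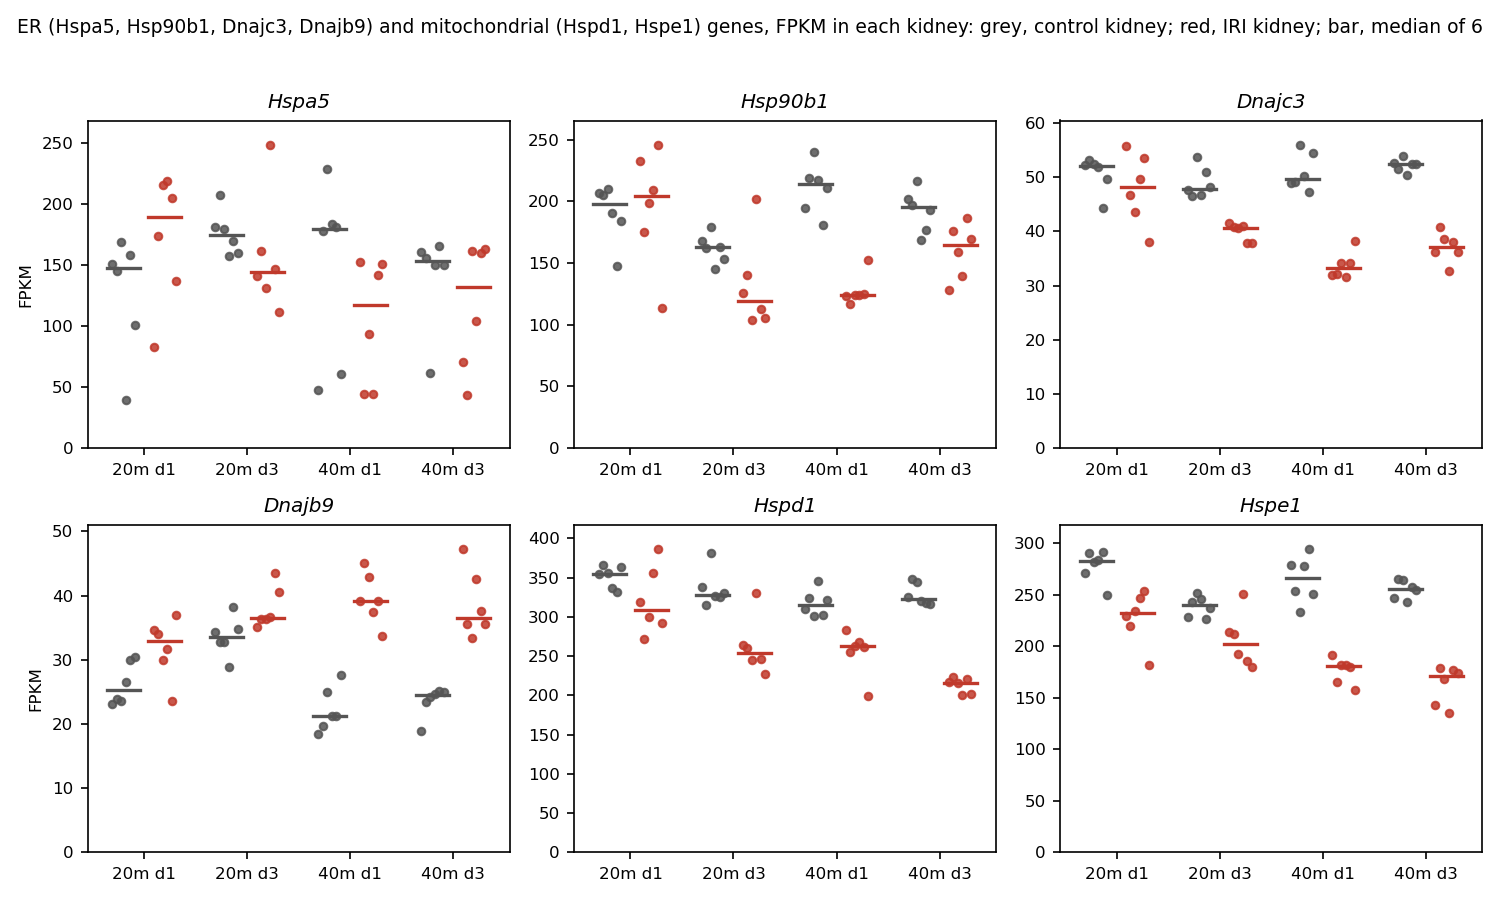
FPKM (vertical linear axis from 0) of 4 ER members and of the mitochondrial pair Hspd1 and Hspe1 in each of the 48 kidneys, by model and day; grey points are control kidneys, red points IRI kidneys and bars the median of 6. Hspa5 takes low and high values within groups, Hsp90b1 and Dnajc3 are lower and Dnajb9 higher in the injured kidneys of the 40-minute model, and Hspd1 and Hspe1 are lower on both of its days.

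The mitochondrial chaperones were mostly lower after severe injury. The 10 genes summed to 871 ± 86.2 FPKM (SD, n = 6) in injured and 1025 ± 31.7 FPKM in control kidneys on day 1, and to 741 ± 25.2 against 1034 ± 23.0 FPKM on day 3. On day 1, 6 fell and 2 rose (18.4% and 39.7% of all genes), and on day 3, 8 fell and 1 rose (20.0% and 37.2% of all genes). Under equal-median scaling 7 fell and 1 rose on day 1 (3744 and 3965 of 14275 genes). On day 3 it was 8 and 0 under that scaling (4030 and 4107 of 14270 genes). On day 3 the highest injured kidney summed to 770.3 FPKM and the lowest control to 1017 FPKM. Without replicate 6, 5 fell and 3 rose on day 1.

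Hspd1 and Hspe1 form the Hsp60 chamber and its Hsp10 lid. On day 3 of the severe model Hspd1 ran from 200 through 216 to 224 FPKM against 316 through 323 to 348 FPKM (-0.62 ± 0.04, 0.648-fold, adjusted p = 1.15e-07). Hspe1 ran from 135 through 171 to 179 FPKM against 243 through 256 to 266 FPKM (-0.66 ± 0.07, 0.634-fold, adjusted p = 5.71e-06). The groups of both genes were apart by more than their ranges. On day 1 the changes were -0.32 ± 0.08 for Hspd1 (adjusted p = 0.00374) and -0.59 ± 0.07 for Hspe1 (adjusted p = 1.22e-05).

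In the mild model each of the pair passed on 1 day. Hspe1 changed by -0.29 ± 0.08 on day 1 (adjusted p = 0.0461), which did not pass with the mouse as a block (adjusted p = 0.0647) or without any of 10 of the 12 kidneys, all but IRI replicates 5 and 6 (highest adjusted p = 0.0951). On day 3 Hspd1 fell (-0.37 ± 0.09, adjusted p = 0.0113) and Hspe1 changed by -0.22 ± 0.08 (adjusted p = 0.0662; -0.28, adjusted p = 0.00344, without replicate 4).

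Hspa9 (mortalin), the Hsp70 that pulls proteins into mitochondria, did not pass on day 1 and fell on day 3 of the severe model. After 40-minute IRI on day 1 it ran from 194 through 294 to 341 FPKM against 256 through 271 to 277 FPKM (0.07 ± 0.11, adjusted p = 0.62). Replicate 6 was the lowest of these, and without it the change passed as higher (0.17 ± 0.05, adjusted p = 0.012). On day 3 it ran from 192 through 213 to 236 FPKM against 262 through 270 to 275 FPKM, with no overlap (-0.33 ± 0.05, adjusted p = 6.59e-05). Dnajc28, a little studied J protein, had the largest mitochondrial decrease, from a median of 7.18 to 2.03 FPKM on day 1 (-1.79 ± 0.17, adjusted p = 1.51e-06) and from 6.85 to 2.82 FPKM on day 3 (-1.23 ± 0.10, adjusted p = 3.48e-07). Dnaja3 (Tid1), the partner of Hspa9, and Dnajc30 fell on both days, and Dnajc15 on day 3. Dnajc19, of the import motor, passed on both days with small decreases (-0.18 and -0.21; 0.109 on day 3 with the mouse as a block, as adjusted p). Dnajc11, of the cristae complex, rose on day 1 (0.62 ± 0.11, adjusted p = 0.000365), and Dnajc4 passed as higher on both days (0.42 and 0.18; adjusted p = 0.0684 on day 3 with the block). The unplaced Dnajc22 fell in 3 comparisons (-0.61 and -0.39 severe, -0.42 on day 3 of the mild model).

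Genes with a paired heat shock element in the searched bases did not share a direction. Of the 15, 8 rose and 5 fell on day 1 and 6 rose and 5 fell on day 3 of the severe model (39.7% and 18.4%, then 37.2% and 20.0% of all genes), and 3 rose and 1 fell on day 1 and 3 rose and 2 fell on day 3 of the mild model (4.19% and 2.49%, then 8.47% and 8.85% of all genes). The 3 with the longer run, Dnajb6, Hspd1 and Hspe1, rose in none, and Hspd1 and Hspe1 hold the same run. Of the 44 searched genes without the element, 16 rose and 10 fell, 10 rose and 13 fell, 0 rose and 0 fell, and 2 rose and 5 fell in the same comparisons. Nothing about the factor follows from these counts.

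Severity was compared directly between the injured kidneys of the models. On day 1, 17 of 73 members were higher and 15 lower after 40- than after 20-minute IRI (25.4% and 14.8% of all genes), and 5 and 3 were called (7.82% and 5.88%). Under equal-median scaling 12 were higher and 22 lower (2729 and 2744 of 14274 genes). On day 3, 8 were higher and 10 lower (24.0% and 8.07% of all genes), and 2 and 2 were called (9.82% and 2.32%). Under equal-median scaling 4 were higher and 19 lower (2244 and 2098 of 14284 genes). Hspb1 was higher by 2.40 ± 0.38 (adjusted p = 0.000563) on day 1 and by 2.01 ± 0.24 (adjusted p = 0.00011) on day 3. Dnajc28 was lower after 40-minute IRI (-1.55 and -0.97 on the 2 days), as were Dnajc12 (-1.26 and -1.19) and Hsph1 (-0.80 and -1.25).

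The control kidneys of the models gave the background for this comparison. Between them 2 of 72 members were higher and 0 lower on day 1 (1.26% and 1.97% of all genes; 9 and 8 members at an unadjusted p under 0.05), and 2 were higher and 6 lower on day 3 (3.78% and 3.05% of all genes). By the added fold of 2, 0 members were called on either day. Calls were rare among all genes too, at 0.226% in each direction for the day 1 controls. For the day 3 controls 0.495% of all genes were called higher, against 0.424% called lower. The absence of called members thus does not single out the chaperones. Control Hspb1 was itself higher in the 40-minute model on day 1 (0.74 ± 0.16, adjusted p = 0.028). The test of the difference between the 2 changes takes these controls into account. By it the change from control was higher after 40- than after 20-minute IRI in 14 members and lower in 13 on day 1 (18.5% and 11.3% of all genes). Under equal-median scaling it was higher in 9 and lower in 16 (2009 and 2008 of 14297 genes). On day 3 the change was higher in 8 and lower in 14 (20.4% and 8.99% of all genes). Under equal-median scaling it was higher in 4 and lower in 15 there (2091 and 1944 of 14299 genes).

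For Hspb1 the difference of the changes was 1.66 ± 0.44 (adjusted p = 0.00593) on day 1 and 1.86 ± 0.36 (adjusted p = 0.000482) on day 3. It was -1.05 ± 0.25 and -1.23 ± 0.36 for Hsph1, -1.76 and -1.07 for Dnajc28 and -0.73 ± 0.19 for Hsp90b1 on day 1. Among CCT subunits, Cct2, Cct3, Cct5 and Cct8 differed on day 1 (0.55, 0.73, 0.45 and 0.50) and Cct2 on day 3 (0.23). Dnajb9 (0.57 and 0.53) and Dnajc10 (0.45 and 0.65) differed on both days.

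Within the severe model the change differed between the days in 14 members, higher on day 3 in 2 and lower in 12 (5.69% and 8.2% of all genes). Under equal-median scaling it was higher in 3 and lower in 8 (942 and 798 of 14297 genes). Cct3 (-0.63 ± 0.18, adjusted p = 0.0241), Cct5 (-0.45 ± 0.13, adjusted p = 0.0257) and Cct8 (-0.37 ± 0.12, adjusted p = 0.037) had moved back toward control. Hspd1 (-0.30 ± 0.09, adjusted p = 0.0302) had moved further down. Hspa9 (-0.40 ± 0.12, adjusted p = 0.0324) had gone from 0.07 on day 1, which did not pass, to -0.33 on day 3. Hsp90b1 (0.44 ± 0.13, adjusted p = 0.0232) had moved up from its low of day 1. In the mild model 0 members differed between the days by limma, where 0.042% of all genes differed in each direction. At an unadjusted p under 0.05, 0 were higher and 10 lower on day 3.

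Related genes outside these families were counted from lists written from general knowledge, each to be read against all genes, of which 39.7% rose and 18.4% fell on day 1 and 37.2% rose and 20.0% fell on day 3 of the severe model. Of 25 HSF and Hsp70/Hsp90 co-chaperones, 12 rose and 4 fell on day 1, and 4 rose and 9 fell on day 3. Bag2, an inhibitor of Hsp70-directed degradation, rose by 1.92 ± 0.16 (adjusted p = 6.21e-07) and 1.34 ± 0.11 (adjusted p = 3.56e-07), and Bag3, the partner of Hspb8, by 1.06 ± 0.10 (adjusted p = 1.49e-06) on day 1. Fkbp5, a glucocorticoid-induced Hsp90 partner, rose by 2.45 ± 0.23 (adjusted p = 1.53e-06) on day 3. After 20-minute IRI 1 and 2 of the 25 rose and 0 fell on days 1 and 3 (4.19% and 8.47% of all genes rose).

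Of 20 ER folding genes, 3 rose and 11 fell on day 1 of the severe model, and 4 rose and 7 fell on day 3. Sdf2l1, a BiP cofactor, fell on both days (-1.35, adjusted p = 6.28e-07, and -1.19, adjusted p = 0.00185). In the mild model 1 rose and 5 fell on day 3 (8.47% and 8.85% of all genes). Of 15 mitochondrial import and protease genes, 3 rose and 5 fell on day 1 and 1 rose and 5 fell on day 3 of the severe model, with Clpx, the unfoldase of the matrix protease ClpXP, at -1.05 ± 0.10 (adjusted p = 2.02e-06) on day 1. Clpb, a disaggregase, was at -1.03 ± 0.14 (adjusted p = 4.39e-05) on day 3.

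Among the other marker lists, with the same shares of all genes beside them, 6 of 8 distal nephron markers fell and 8 of 8 cell cycle markers rose on both days of the severe model. Neutrophil markers (7 genes) rose in 6 and fell in 1 on day 1 and rose in 6 on day 3, adipose markers (5 genes) rose in 5 and 3, endothelial markers (7 genes) rose in 4 and fell in 1 on day 1 and fell in 2 on day 3, and immediate early genes (8) rose in 5 on day 1, and rose in 4 and fell in 1 on day 3. Of the 2 skeletal muscle markers in the table, 1 fell on day 1 and 1 rose on day 3. In the mild model 3 and 6 macrophage markers rose on days 1 and 3 (4.19% and 8.47% of all genes). On the same days 5 and 6 proximal tubule markers fell (2.49% and 8.85% of all genes). The part these lists play in the chaperone changes was not tested.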

How the data were processed

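The authors enriched mRNA from renal cortex RNA, made libraries with a Kapa kit and sequenced them for 150 cycles on Illumina X-ten and NovaSeq instruments. According to the submitters' processing notes and the study's methods, reads were filtered with FastQC 0.11.7, aligned to GRCm38 with HISAT2 2.1.0 and assembled into transcript levels with Ballgown, and levels under 0.01 FPKM were dropped. The deposited values are FPKM per transcript, made by the authors, in a table of 33953 transcripts by 48 libraries. Strand use is not given in the sources used here, so overlapping antisense genes may share reads. Every transcript reached 0.5 FPKM in at least 1 library.

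Transcript FPKM values were summed by gene symbol (GENCODE M21, 33871 transcripts matched). The symbol pattern for the members literally matched 70 symbols, and Hsp90aa1, Hsp90ab1 and Hsp90b1, which it names but for a letter after the number, were added to give 73. Place and family were assigned from general knowledge. Another 8 genes of these families were not analysed here. Members, lists and tests were chosen with earlier results of these data known. Genes whose mean over the fitted kidneys reached 0.01 FPKM were tested with limma 3.58.1 (trend) in R 4.3.3 on log2(FPKM + 0.01), with Benjamini-Hochberg adjustment over all genes. On this scale the fitted changes of genes near 0 depend on the added constant, and for Hspb6 and Cct6b they were larger than with 1 FPKM. IRI and control groups of a model and day were fitted without a block: the study used the right kidneys as self-controls but names no paired test in the methods used here. The difference of 2 changes was fitted on the 4 groups concerned. The script was tested on simulated data. Separate FPKM columns gave separate kidneys, and 0 pairs of libraries held identical values.

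Same-numbered kidneys came from the same mouse, so the numbers pair the samples. The median correlation of their deviations from the group means was 0.017, 0.045, 0.052 and -0.002 in the 20-minute model on days 1 and 3 and the 40-minute model on days 1 and 3. Alternatives were other added constants (0.1 and 1 FPKM), no filter, a mean floor of 1 FPKM, scaling of libraries to an equal median, the most abundant transcript alone, the mouse as a block, and leaving out each kidney. Values in each kidney were given for a fixed set of exemplar members and for called members with the largest changes, a mean of at least 1 FPKM and no overlap. Shared sequence is the share of a gene's 100-base words found in transcripts of other genes. Promoter elements were searched on both strands of the 250 bases before the start. Depth was estimated from the smallest steps between values; precision is otherwise limited by 6 kidneys per group.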

Additional observations from a re-analysis of the deposited data

Results flagged for a closer look

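Among 184 sets of 6 values (23 named members in 8 groups), 22 had a highest or lowest kidney far from the other 5 by Dixon's criterion, which chance gives in about 1 of 20 sets. They came from 15 libraries.

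In replicate 6 of the 40-minute day 1 IRI group 4 members stood apart: Hsp90aa1 was 133 FPKM (others 228 to 283), Hspa9 194 FPKM (284 to 341) and Hspd1 199 FPKM (256 to 283), all low, and Hsp90b1 was high at 153 FPKM (117 to 125). In replicate 4 of the 20-minute day 3 IRI group Hspb1 was 48.9 FPKM (17.8 to 23.1) and Dnajb11 60.7 FPKM (43.2 to 46.3). In replicate 3 of the 20-minute day 3 controls Hspa8 was 709 FPKM (413 to 499), Hsp90aa1 155 FPKM (85.6 to 99.3) and Hspd1 382 FPKM (315 to 338).

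Dnajc12 was high in 1 control kidney of 3 groups: 46.7 FPKM in replicate 2 of the 20-minute day 1 controls, 62.5 FPKM in replicate 4 of the 40-minute day 1 controls and 69.1 FPKM in replicate 5 of the 40-minute day 3 controls, where no other control of those groups exceeded 27.4 FPKM. Hspa5 was low at 39.4 FPKM in replicate 4 of the 20-minute day 1 controls (others 101 to 169) and at 61.8 FPKM in replicate 3 of the 40-minute day 3 controls (150 to 166). In replicate 5 of the 20-minute day 1 controls Hsp90b1 was 148 FPKM (184 to 210) and Dnajc3 44.4 FPKM (49.8 to 53.2). The other single values were Hsp90ab1 at 453 FPKM in replicate 3 of the 20-minute day 1 IRI group, Dnajb1 at 12.1 FPKM in replicate 5 and Cct6b at 0 FPKM in replicate 4 of the 40-minute day 3 IRI group, Hspb6 at 0 FPKM in replicate 3 of the 20-minute day 1 controls, and Dnaja1 at 65.3 FPKM in replicate 2 and Dnajb9 at 18.9 FPKM in replicate 1 of the 40-minute day 3 controls.

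By limma's test of the difference, the change from control differed between the 40- and the 20-minute model in 11 named members on day 1. Of all genes 18.5% were higher and 11.3% lower by that test. In log2 units, 40 minus 20 minutes, the difference was -2.75 for Cct6b, -1.76 for Dnajc28, -1.27 for Dnajc12, -1.05 for Hsph1, -0.725 for Hsp90b1, -0.507 for Dnajc3, -0.491 for Dnaja1, -0.293 for Hspe1, 0.568 for Dnajb9, 0.933 for Hspb8 and 1.66 for Hspb1. On day 3 the change differed in 9 (20.4% of all genes higher and 8.99% lower): -1.28 for Dnajc12, -1.23 for Hsph1, -1.07 for Dnajc28, -0.436 for Hspe1, -0.26 for Hspd1, -0.224 for Hspa9, -0.204 for Dnajc3, 0.529 for Dnajb9 and 1.86 for Hspb1. Between the days of the 40-minute model, day 3 minus day 1, it differed in 3 (5.69% of all genes higher and 8.2% lower): 0.444 for Hsp90b1, -0.4 for Hspa9 and -0.302 for Hspd1. Cct6b, Dnajc12 and Dnajc28 were themselves named for large changes on day 1 of the 40-minute model.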

How the results depend on the processing

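For 92 gene results (23 named members in the 4 comparisons with control) the side of the threshold was compared between settings. Direction was compared only where a result passed in either fit, so a change of sign among results that passed in neither was not counted. In this sense 92 held without a filter, 88 of 88 with a mean floor of 1 FPKM and 91 with a constant of 0.1 or of 1 FPKM. There were 87 that held with libraries scaled to an equal median and 86 with the most abundant transcript alone. That last setting turned the direction in 2 on day 1 of the 40-minute model: Dnaja1 to 3.77 and Hsp90aa1 to -0.64, neither past the threshold there, and reads of both genes were divided among transcripts differently in different libraries. With the mouse as a replicate block 90 held. With the block Hspb1 and Hspe1 no longer had an adjusted p under 0.05 on day 1 of the 20-minute model, 2 of 3 members were called there, and the other results of the 23 members in these comparisons kept their side of the threshold. Members called on day 3 of the 20-minute model fell from 5 to 3 (2 higher and 1 lower), and those called between injured kidneys on day 1 from 8 to 5, with a constant of 1 FPKM. With each kidney left out in turn, members called ranged from 2 to 3 and 3 to 6 on days 1 and 3 of the 20-minute model, from 11 to 15 and at 7 in the 40-minute model, and from 6 to 9 and 3 to 5 between injured kidneys. The causes were not tested. Depth limits the genes under about 1 FPKM, whose fitted changes rest on the added constant, and transcripts listed at 0 (Hsph1, Cct7, Hspa5) limit their sums.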
